A study of Mus musculus with 18 samples.

Results

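Antigen presentation was followed through 10 genes of the major histocompatibility complex (MHC) class I and class II pathways in mouse microglia. The class II genes were H2-Aa, H2-Ab1, H2-Eb1, H2-DMa and their regulator Ciita, and the class I genes were H2-K1, B2m, Tap1, Tap2 and Tapbp. Each gene was read from the probe sets that the array annotation assigned to that symbol alone, and the brightest over the 18 arrays was used where there was more than 1. All 10 genes had such a probe set, among 22180 genes in the table.

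Cells came from untreated C57Bl/6 mice housed under specific pathogen-free conditions, were enriched on a Percoll gradient and were sorted as CD45+, CD11b+ and Gr1-. The 18 arrays formed 6 groups of 3, which were cortex and corpus callosum, each taken 3 days after birth (P3), 7 days after birth (P7) and from adults whose age the labels do not give. The number of animals behind an array, any pooling and the sex are not given either, so p-values measure only the spread between these samples, which may be technical, and the 3 arrays per group limit every value. P3 arrays carry another label prefix than P7 and adult arrays, so age and array set cannot be told apart in a comparison of P7 with P3. All values are the authors' log2 levels from the robust multi-array average (RMA), with base 2 taken from their range, so that 1 unit is a factor of 2.

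Class I molecules pair a heavy chain such as H2-K1 with B2m, and they show peptides that the TAP transporter has brought in from the cytosol. Class II molecules are pairs of an alpha and a beta chain that take up peptides in endosomes, where H2-DM exchanges a blocking peptide for an antigenic one. Ciita is the master switch of class II transcription, and resting microglia are known for little class II until interferon gamma or injury induces it. CD11b and CD45 also mark other brain macrophages and blood monocytes, which carry class II more readily.

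Microglial identity was checked on 7 marker genes, whose group means lay between 7.62 and 12.35, above the median of 5.65 over all values. P2ry12, a purinergic receptor typical of microglia, lay between 11.60 and 12.21 in the 6 groups. On Fn1 and F13a1 a single array stood apart, replicate 3 of P3 corpus callosum. Its level of Fn1, a matrix gene of monocytes, was 10, while no other array was above 5.76. F13a1, listed here with the markers of border-associated macrophages, was 7.94 there, against at most 5.8 elsewhere. The mean over 7 monocyte markers was 6.74, against at most 5.95, and Fn1 alone carried most of that gap. That array also had the highest of the 18 values for 4 of the 10 genes, which were H2-Aa, H2-Ab1, H2-K1 and Tap1. The members' values that rest most on it are given with and without it. The mean over 6 neutrophil markers was also highest there, at 6.27, and it was 5.79 on replicate 1 of P7 corpus callosum, against 4.62 and 4.64 on the other arrays of that group, and 5.55 on replicate 1 of P3 cortex. S100a8, a neutrophil calcium-binding protein, read 8.76, 7.35 and 8.19 on these 3 arrays.

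H2-DMa, the alpha chain of the peptide exchanger, had the largest differences of the 10 genes between P7 and the adult. In cortex its 3 P3 arrays read 7.60, 7.39 and 8.02, its P7 arrays 8.07, 8.44 and 8.26, and its adult arrays 8.79, 9.33 and 9.27. In corpus callosum the P3 arrays read 7.54, 7.52 and 7.94, the P7 arrays 7.84, 8.06 and 8.02, and the adult arrays 9.10, 8.82 and 9.21. All 6 adult values were above all 12 postnatal ones. The group means ran upward from 7.67 in both P3 groups through 7.97 in P7 corpus callosum and 8.26 in P7 cortex. They reached 9.05 in adult corpus callosum and 9.13 in adult cortex. Between neighbours in this order, arrays did not overlap only from P7 corpus callosum to P7 cortex and from there to adult corpus callosum. The first of these gaps was narrow, 8.06 against 8.07, and that difference was not called. From P7 to the adult, H2-DMa rose by 0.87 ± 0.18 (SE, 3 arrays per group) in cortex, a factor of 1.83, with an adjusted p of 0.00291 in limma. It rose by 1.07 ± 0.18 in corpus callosum, a factor of 2.10, with an adjusted p of 0.000286. Without replicate 1 of P7 corpus callosum, the P7 array with the highest neutrophil markers, that difference was 1.008 with an adjusted p of 0.00257. The 95% intervals ran from 0.49 to 1.25 and from 0.70 to 1.45. In RNA of a sorted population, a change in the share of cells of a type and a change in RNA per cell cannot be told apart.

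H2-DMa was the only one of the 10 genes called in the adult against P7, at an adjusted p under 0.05, in either region. That is 1 of 10 in cortex, where 10.2% of all genes were called, and 1 of 10 in corpus callosum, where 17.2% were, so the share of members called was near or below the background. Genes called higher alone made up 4.05% and 6.56% of all genes. The median difference over the 10 genes was 0.29 in cortex, against 0.03 over all genes, and 0.14 in corpus callosum, against 0.05. Arrays of the compared ages did not overlap for 3 of the 10 genes in each region, where 27.3% of all genes in cortex and 34.6% in corpus callosum did not overlap. H2-DMa kept its call in all 14 alternative analyses in each region, with adjusted p-values up to 0.0214 in cortex and 0.00257 in corpus callosum.

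**Figure D1:**
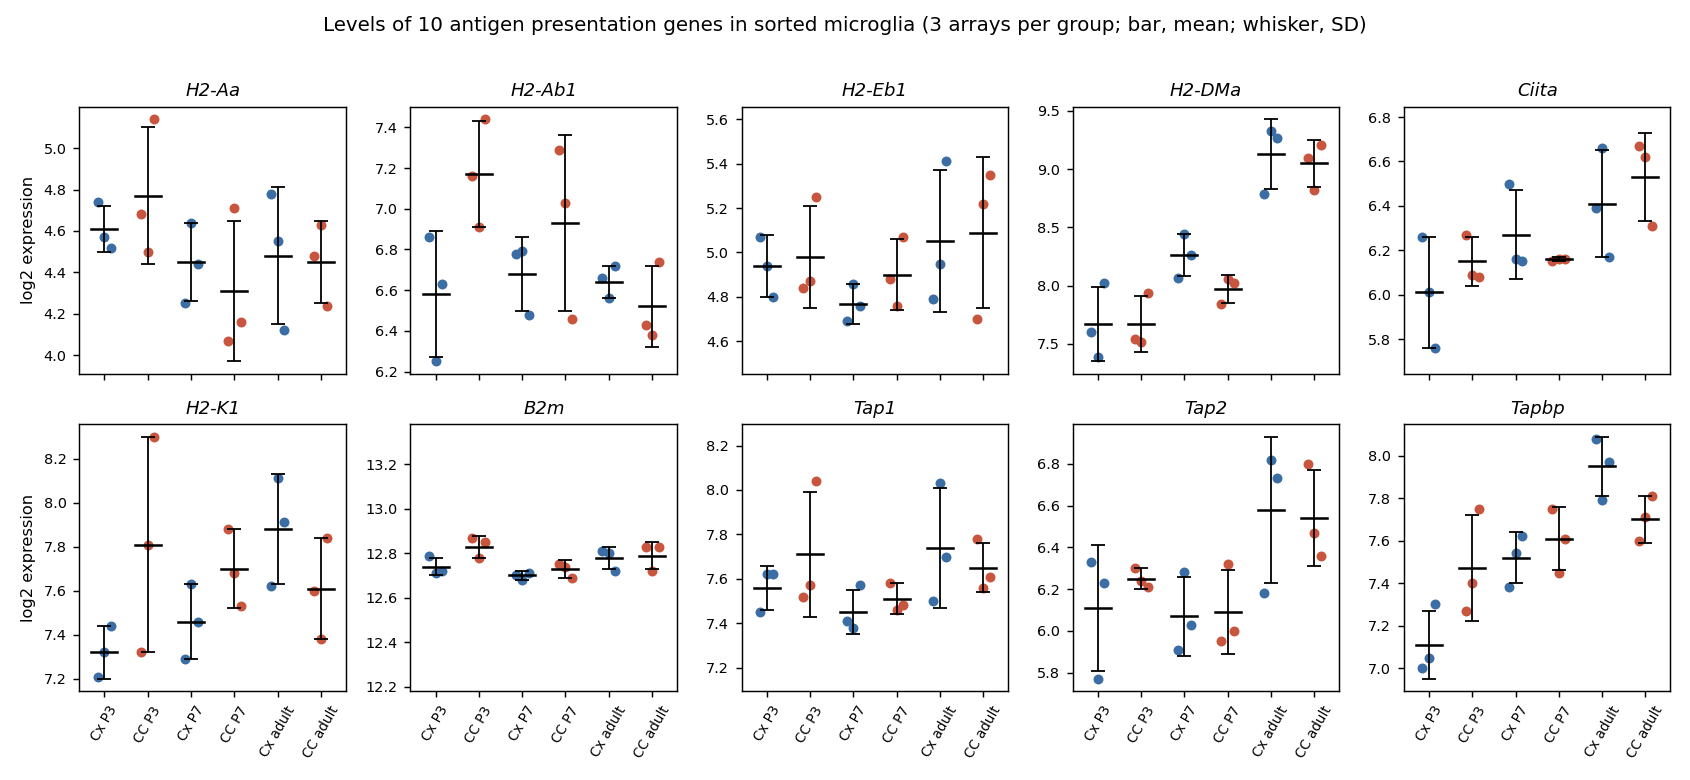
Log2 expression (vertical axes) of the 10 antigen presentation genes in cortex (Cx, blue) and corpus callosum (CC, red) at P3, P7 and in the adult; each point is an array, the bar is the mean of 3 arrays and the whiskers are the SD. H2-DMa is highest on the 6 adult arrays, whereas the other 9 genes were not called between ages or regions; axes differ between panels and levels of different genes are not to be compared.

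None of the 3 classical class II chains was called between P7 and the adult. H2-Aa, the alpha chain of the I-A molecule, read 4.25, 4.64 and 4.44 in cortex at P7 and 4.78, 4.55 and 4.12 in the adult. In corpus callosum it read 4.07, 4.71 and 4.16 at P7 and 4.48, 4.63 and 4.24 in the adult. Ages overlapped in both regions, and the 95% interval of the difference ran from -0.38 to 0.46 in cortex and from -0.28 to 0.55 in corpus callosum. H2-Eb1, the beta chain of the I-E molecule, read 4.69, 4.86 and 4.76 in cortex at P7 and 4.79, 4.95 and 5.41 in the adult. In corpus callosum H2-Eb1 read 4.88, 4.76 and 5.07 at P7 and 4.70, 5.22 and 5.35 in the adult. Here too the ages overlapped. At P3 the 6 values ran from 4.5 to 5.14 for H2-Aa and from 4.80 to 5.25 for H2-Eb1. H2-Aa and H2-Eb1 lay below the median of all values on all 18 arrays, a range where signal and background cannot be told apart in these values, so no presence or absence of these transcripts follows from their levels.

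H2-Ab1, the beta chain that pairs with H2-Aa, had its highest group mean in P3 corpus callosum and its lowest in adult corpus callosum. Its P3 values were 6.86, 6.25 and 6.63 in cortex and 7.16, 6.91 and 7.44 in corpus callosum. At P7 they were 6.78, 6.79 and 6.48 in cortex and 7.29, 7.03 and 6.46 in corpus callosum, and in the adult 6.66, 6.56 and 6.72 in cortex and 6.43, 6.38 and 6.74 in corpus callosum. The regions did not overlap at P3 and overlapped at P7 and in the adult. From P7 to the adult the difference was -0.04 ± 0.20 in cortex (adjusted p = 0.957) and -0.41 ± 0.20 in corpus callosum (adjusted p = 0.182), neither of which passed the test. Without replicate 3 of P7 corpus callosum, the lowest P7 value there, the difference was -0.64 ± 0.19 with an adjusted p of 0.0303, so that H2-Ab1 was then called lower in the adult. It was not called in any other alternative. The highest P7 value there, 7.29, came from replicate 1, the P7 array with the highest neutrophil markers. No neighbours in the order of its 6 group means were separated beyond the range of their arrays.

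Ciita, the coactivator without which class II genes are hardly transcribed, read 6.50, 6.16 and 6.15 in cortex at P7 and 6.39, 6.66 and 6.17 in the adult. In corpus callosum Ciita read 6.15, 6.16 and 6.16 at P7 and 6.67, 6.62 and 6.31 in the adult. Ages overlapped in cortex and did not in corpus callosum. The difference in corpus callosum was 0.37 ± 0.15 with an adjusted p of 0.109, and in cortex its 95% interval ran from -0.19 to 0.46. At P3 the 6 values of Ciita lay between 5.76 and 6.27.

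**Figure D2:**
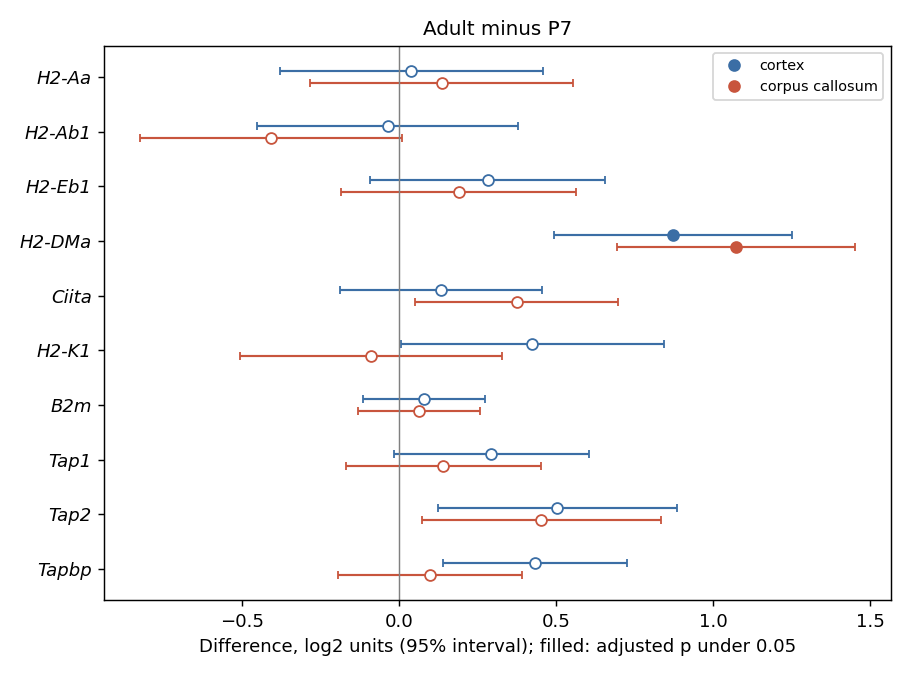
Difference between the adult and P7 in log2 units (horizontal axis) for each of the 10 genes in cortex (blue) and corpus callosum (red); points are differences of means of 3 arrays and lines are 95% intervals, with filled points for an adjusted p under 0.05. Only the 2 points of H2-DMa, at 0.87 and 1.07, are filled.

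Of the class I genes, B2m, the light chain shared by class I molecules, was nearly flat. Its values ran from 12.68 to 12.87 over the 18 arrays, and its SD within groups was 0.04. The largest gap between group means was 0.13, and 1.5% of all genes had a smaller one. Adult cortex, at 12.81, 12.80 and 12.72, did not overlap P7 cortex, at 12.70, 12.68 and 12.71, but the difference was 0.08 ± 0.09 with an adjusted p of 0.731, and its sign turned when the arrays were quantile-normalized again. P7 corpus callosum, at 12.75, 12.74 and 12.69, lay below P3 corpus callosum, at 12.87, 12.78 and 12.85, with a difference of -0.10 ± 0.09 and an adjusted p of 0.667, and of -0.09 ± 0.10 without the P3 array that stood apart.

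H2-K1, a classical class I heavy chain, read 7.29, 7.63 and 7.46 in cortex at P7 and 7.62, 8.11 and 7.91 in the adult. In corpus callosum it read 7.88, 7.68 and 7.53 at P7 and 7.60, 7.38 and 7.84 in the adult. Ages overlapped in both regions. The 95% interval of the difference ran from 0.01 to 0.84 in cortex (adjusted p = 0.237) and from -0.51 to 0.33 in corpus callosum (adjusted p = 0.821). Class I heavy chain genes are close relatives, and H2-D1, H2-Q6, H2-Q7 and H2-T22 had only probe sets shared with other symbols, so signal from relatives in the H2-K1 probe set is uncertain.

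Tap1 and Tap2 form the peptide transporter. Tap1 read 7.41, 7.38 and 7.57 in cortex at P7 and 7.5, 8.03 and 7.70 in the adult, and 7.58, 7.46 and 7.48 against 7.78, 7.56 and 7.61 in corpus callosum. Those ages overlapped in both regions, and the 6 values at P3 ran from 7.45 to 8.04. Tap2 read 5.91, 6.28 and 6.03 in cortex at P7 and 6.18, 6.82 and 6.73 in the adult, a difference of 0.50 ± 0.18 with an adjusted p of 0.0979. In corpus callosum Tap2 read 5.95, 6.32 and 6.00 at P7 and 6.80, 6.47 and 6.36 in the adult, a difference of 0.45 ± 0.18 with an adjusted p of 0.0999, and here the ages did not overlap. Without replicate 1 of adult cortex, the lowest adult value, the cortex difference of Tap2 was 0.70 with an adjusted p of 0.0160. It was called in 4 of 14 alternatives, which were both that leave out this array, array weights (adjusted p = 0.00388) and the analysis without dim genes (adjusted p = 0.047). Over the 14 it ran from 0.38 to 0.70, with adjusted p-values up to 0.329. The P3 values of Tap2 lay between 5.77 and 6.33.

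Tapbp encodes tapasin, which holds empty class I molecules at the transporter. In cortex it read 7.00, 7.05 and 7.30 at P3, 7.38, 7.54 and 7.62 at P7 and 8.08, 7.79 and 7.97 in the adult. In corpus callosum it read 7.27, 7.40 and 7.75 at P3, 7.75, 7.45 and 7.61 at P7 and 7.60, 7.71 and 7.81 in the adult. In cortex no age overlapped another, whereas in corpus callosum all 3 ages overlapped. The difference between adult and P7 cortex was 0.43 ± 0.14, with an adjusted p of 0.0587, and between P7 and P3 cortex it was 0.40 ± 0.14, with an adjusted p of 0.205. The adult difference of Tapbp in cortex was called in 5 of 14 alternatives, with adjusted p-values down to 0.0268, among them that with the replicate number as a block (adjusted p = 0.0381). Over the 14 it ran from 0.23 to 0.51, with adjusted p-values up to 0.337. A dimmer Tapbp probe set did not show the adult difference, with means of 6.30 ± 0.08 at P7 and 6.34 ± 0.14 in the adult (SD, n = 3) in cortex, so the probe sets of the gene disagreed.

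Between the regions, none of the 10 genes was called at P3, P7 or in the adult. The background was low, with 0.505% of all genes called at P3, 0.451% at P7 and 0.00451% in the adult. At an unadjusted p under 0.05 limma gave 3 genes at P3, which were H2-Ab1, H2-K1 and Tapbp, and 0 at P7 and 0 in the adult, beside 12.8%, 6.88% and 8.51% of all genes. Without the array that stood apart it gave 0 at P3. H2-Ab1 was higher in P3 corpus callosum by 0.58 ± 0.20 with an adjusted p of 0.205, and without replicate 3 of P3 corpus callosum the difference was 0.45 with an adjusted p of 0.393. H2-K1 read 7.21, 7.32 and 7.44 in P3 cortex and 7.32, 7.81 and 8.30 in P3 corpus callosum, where 8.30 came from the array that stood apart. The difference of 0.49 ± 0.20 (adjusted p = 0.304) was 0.24 ± 0.18 without that array (adjusted p = 0.633). The regional difference of Tapbp at P3 was 0.36 ± 0.14 with all arrays and 0.22 ± 0.14 without it.

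Arrays of the regions did not overlap for 1 of the 10 genes at P3, where 15.8% of all genes did not overlap, for 1 of 10 at P7 against 16.7%, and for 0 of 10 in the adult against 12.8%. The gene at P7 was H2-DMa, which was lower in corpus callosum by a difference of -0.28 ± 0.18 with an adjusted p of 0.886. In the adult the 95% interval of the regional difference of H2-DMa ran from -0.46 to 0.30.

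**Figure D3:**
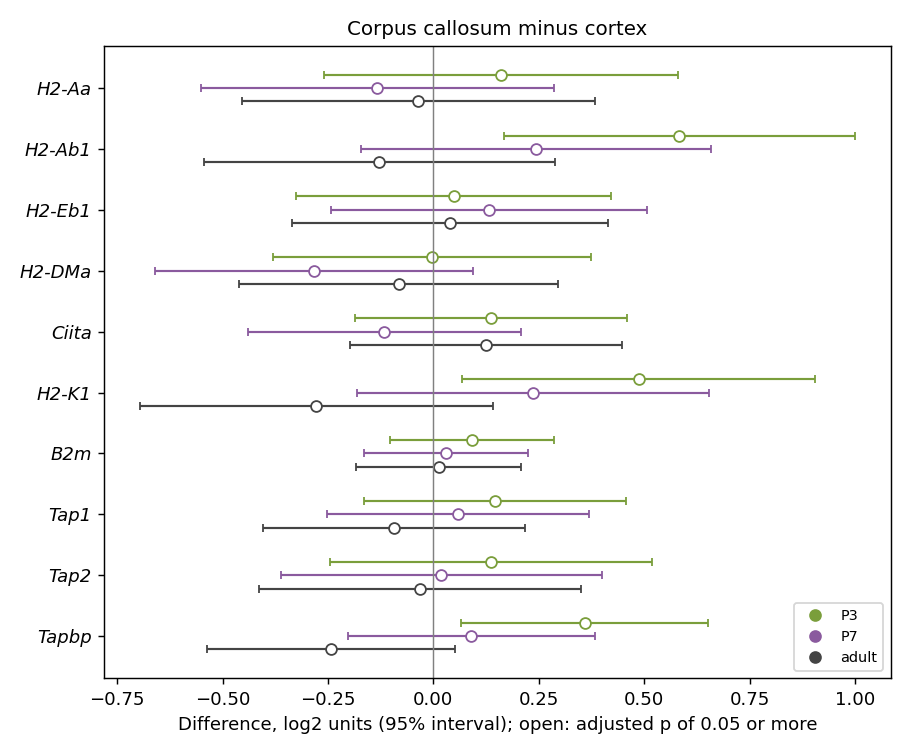
Difference between corpus callosum and cortex in log2 units (horizontal axis) for each of the 10 genes at P3 (green), P7 (purple) and in the adult (dark grey); points are differences of means of 3 arrays, lines are 95% intervals, and all points are open because no adjusted p was under 0.05. H2-Ab1, H2-K1 and Tapbp lie to the right of 0 at P3, at 0.58, 0.49 and 0.36, and the P3 values include the array that stood apart.

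Whether the regional difference itself changed with age was tested as an interaction. None of the 10 genes was called at P7 against P3, where 0 of all genes (0%) were called and 1260 had an unadjusted p under 0.05, in the adult against P7, where 0.203% were called, or in the adult against P3, where 0.18% were. The unadjusted p was under 0.05 for 0, 0 and 3 of the 10 genes in these comparisons, beside 5.68%, 7.34% and 13.7% of all genes. The 3 were 1, Tapbp, without the array that stood apart. In the adult against P3, the change in regional difference was -0.71 ± 0.28 for H2-Ab1 (adjusted p = 0.276), -0.76 ± 0.28 for H2-K1 (adjusted p = 0.242) and -0.60 ± 0.20 for Tapbp (adjusted p = 0.188). Without the array that stood apart, these values were -0.58, -0.52 and -0.46, with adjusted p-values of 0.407, 0.382 and 0.294. In the adult against P7, H2-K1 changed by -0.51 ± 0.28 with an adjusted p of 0.735. The rise of H2-DMa in corpus callosum exceeded that in cortex by 0.20 ± 0.25 (adjusted p = 0.943), so the 2 regions were not shown to differ in it.

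Between P3 and P7, none of the 10 genes was called, where 0.884% of all genes were called in cortex and 0.739% in corpus callosum. At an unadjusted p under 0.05 limma gave H2-DMa and Tapbp in cortex and H2-Aa in corpus callosum, beside 13% and 14.2% of all genes. In corpus callosum the 1 gene was H2-DMa in place of H2-Aa without the array that stood apart. H2-DMa was higher at P7 than at P3 in cortex by 0.59 ± 0.18 without overlap, with an adjusted p of 0.145, and by 0.31 ± 0.18 with overlap in corpus callosum, with an adjusted p of 0.471. Without the array that stood apart the latter was 0.44 ± 0.19, with an adjusted p of 0.25. The H2-Aa difference in corpus callosum was -0.46 ± 0.20 with all arrays, and -0.27 ± 0.20 without the array that stood apart. Arrays did not overlap for 2 of the 10 genes in cortex, against 21.3% of all genes, and for 1 of 10 in corpus callosum, against 18.8%.

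Other genes of the class II pathway also differed between P7 and the adult. Of 11 other class II genes tested, 6 rose and 1 fell from P7 to the adult in cortex, and 5 rose and 1 fell in corpus callosum, where 4.05% and 6.56% of all genes rose and 6.15% and 10.7% fell. Their median difference was 0.49 in cortex and 0.63 in corpus callosum. All 5 that rose in corpus callosum also rose in cortex, which were H2-DMb1, H2-DMb2, H2-Ob, Ctss and Marchf1, and Ifi30 fell in both. These lists were drawn up with results of these data known, so the counts describe them and support no direction.

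H2-DMb1 and H2-DMb2 encode the beta chains that pair with H2-DMa. H2-DMb1 read 4.90, 5.64 and 5.8 in cortex at P7 and 6.12, 6.22 and 6.56 in the adult, and it rose by 0.85 ± 0.20 (adjusted p = 0.00893). In corpus callosum H2-DMb1 read 5.51, 5.35 and 5.79 at P7 and 6.14, 6.52 and 6.45 in the adult, a rise of 0.82 ± 0.20 (adjusted p = 0.00767). H2-DMb2 read 6.44, 5.76 and 5.58 in cortex at P7 and 6.47, 6.70 and 6.93 in the adult, a rise of 0.77 ± 0.24 (adjusted p = 0.0458). In corpus callosum H2-DMb2 read 5.0, 5.39 and 5.10 at P7 and 6.46, 6.32 and 6.96 in the adult, a rise of 1.42 ± 0.24 (adjusted p = 0.000307). Ages did not overlap for either gene. Both kept their calls in corpus callosum in all 14 alternatives, whereas in cortex H2-DMb2 lost its call in 5, with adjusted p-values up to 0.226, and H2-DMb1 in 3, up to 0.057. The arrays whose absence ended the cortex call were replicates 2 and 3 at both ages for H2-DMb2, and replicate 1 of P7 and replicate 3 of the adult for H2-DMb1. These are near-identical neighbours, so signal of one in the probe set of the other is uncertain, and several P7 values lay near or below the median of all values.

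H2-Oa and H2-Ob form H2-DO, an inhibitor of H2-DM. H2-Ob read 5.95, 5.75 and 5.51 in cortex at P7 and 6.26, 6.48 and 6.83 in the adult, a rise of 0.79 ± 0.14 (adjusted p = 0.00087). In corpus callosum H2-Ob read 5.63, 5.91 and 5.78 at P7 and 6.53, 6.51 and 6.55 in the adult, a rise of 0.76 ± 0.14 (adjusted p = 0.00075). H2-Oa read 7.06, 7.07 and 7.00 in cortex at P7 and 7.24, 8.31 and 7.96 in the adult, a rise of 0.79 ± 0.24 (adjusted p = 0.0439) that was lost in 6 of 14 alternatives. In corpus callosum its difference was 0.63 ± 0.24 with an adjusted p of 0.0832. Both subunits of the inhibitor thus lay higher on every adult array than on every P7 array of the same region.

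Enzymes of the class II pathway moved in both directions. Ctss, cathepsin S, which cuts the invariant chain, rose by 0.49 ± 0.11 in cortex (adjusted p = 0.00453) and by 0.63 ± 0.11 in corpus callosum (adjusted p = 0.000373). Its level was 11.72, 11.84 and 11.90 at P7 and 12.13, 12.38 and 12.43 in the adult in cortex. Marchf1, a ubiquitin ligase that takes class II and CD86 off the surface, rose by 0.63 ± 0.11 (adjusted p = 0.000962) and 0.82 ± 0.11 (adjusted p = 4.55e-05). Ifi30, the lysosomal thiol reductase that unfolds antigens, read 9.75, 9.82 and 9.96 in cortex at P7 and 8.30, 8.81 and 8.64 in the adult, and it fell by 1.26 on the log2 scale (adjusted p = 0.000484). In corpus callosum Ifi30 fell by 0.90 on the log2 scale (adjusted p = 0.00582). Of the remaining genes of the list, Lgmn, Rfx5, Rfxap and Rfxank were not called in either region.

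**Figure D4:**
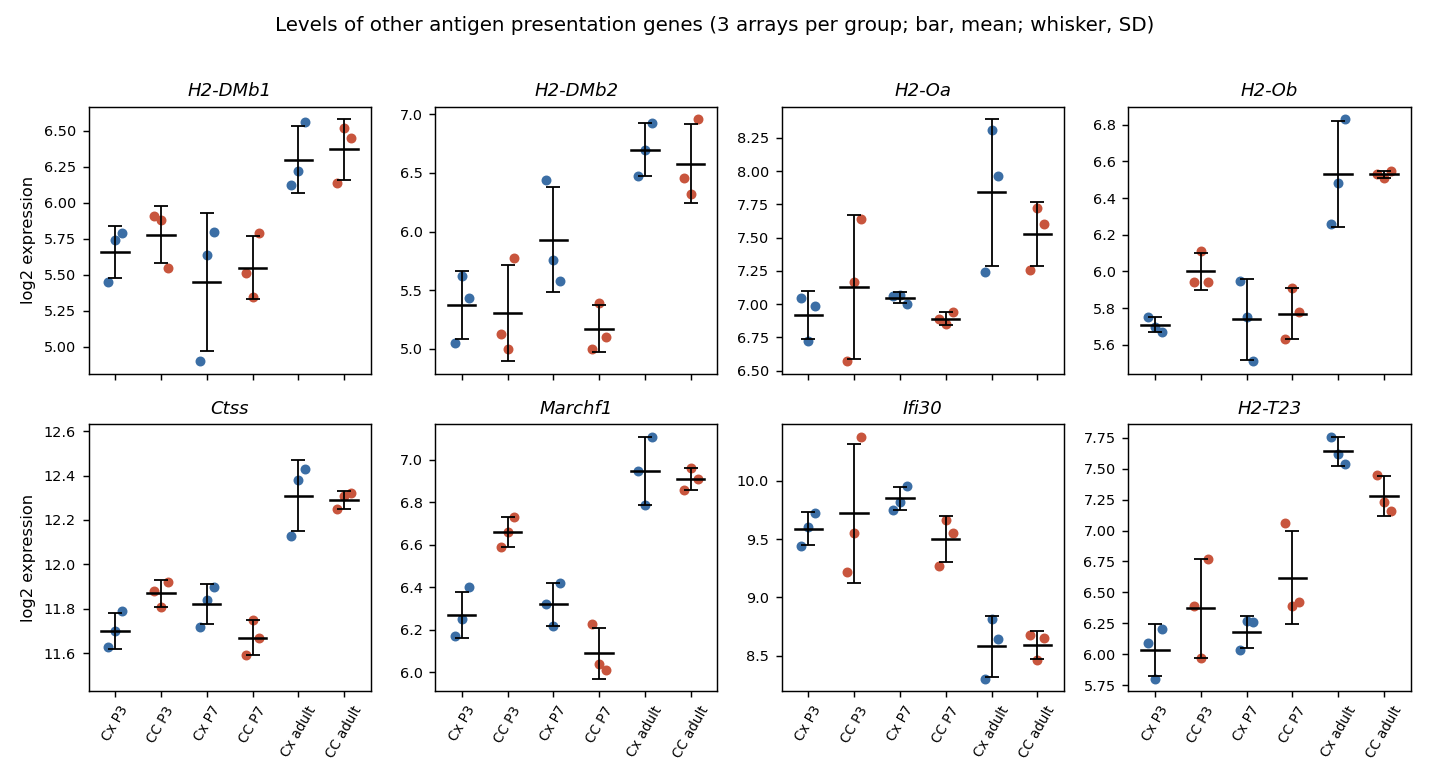
Log2 expression (vertical axes) of 8 other antigen presentation genes in cortex (Cx, blue) and corpus callosum (CC, red) at P3, P7 and in the adult; each point is an array, the bar is the mean of 3 arrays and the whiskers are the SD. In both regions Ifi30 is lower on every adult array than on every P7 array, and the other 7 genes are higher; H2-Oa was called in cortex and had an adjusted p of 0.0832 in corpus callosum.

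Leaving out single arrays changed how many of these genes were called in cortex more than in corpus callosum. In cortex 3 class II genes rose without replicate 3 of adult cortex, 4 without replicate 2 of adult cortex or without any single P7 array, and 6 without replicate 1 of adult cortex. Of all genes, 592 rose without replicate 3 of adult cortex, 612 without replicate 2, and 561 to 705 without a single P7 array. Without replicate 1 of adult cortex 1004 rose, against 899 with all arrays. In corpus callosum the class II count stayed at 5 whichever array was left out, while 986 to 1244 of all genes rose, against 1454 with all arrays. Ctss, H2-Ob, Marchf1 and Ifi30 kept their calls in all 14 alternatives in both regions.

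Among 17 other class I genes, 3 rose and 0 fell in cortex, and 3 rose and 1 fell in corpus callosum, beside the 4.05% and 6.56% of all genes that rose. H2-T23, which encodes the non-classical molecule Qa-1, read 6.03, 6.27 and 6.26 in cortex at P7 and 7.76, 7.62 and 7.54 in the adult, and it rose by 1.45 ± 0.19, a factor of 2.74 (adjusted p = 3.92e-05). In corpus callosum H2-T23 read 7.06, 6.39 and 6.42 at P7 and 7.45, 7.23 and 7.16 in the adult, a rise of 0.65 ± 0.19 (adjusted p = 0.0247) that was lost in 5 of 14 alternatives. The regional difference of H2-T23 in the adult against P7 was -0.80 ± 0.27 with an adjusted p of 0.461. Tapbpl, a tapasin relative that edits class I peptides, rose by 0.55 ± 0.14 in cortex (adjusted p = 0.0184) and by 0.50 ± 0.14 in corpus callosum (adjusted p = 0.0228). The call of Tapbpl was lost in 5 of 14 alternatives in cortex, up to an adjusted p of 0.11, and in 3 of 14 in corpus callosum, up to 0.105.

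Psmb9, an immunoproteasome subunit, rose by 0.53 ± 0.14 in cortex (adjusted p = 0.0159), against 0.37 ± 0.14 in corpus callosum (adjusted p = 0.0766). In corpus callosum Cd1d1, which presents lipids, rose by 0.52 ± 0.17 (adjusted p = 0.0437), and Erap1, which trims peptides, fell by 0.50 on the log2 scale (adjusted p = 0.0377). These calls were fragile. The count of rising class I genes in cortex was 1 without replicate 1 or 3 of P7 cortex or replicate 2 of adult cortex, 2 without replicate 2 of P7 cortex or replicate 3 of adult cortex, and 4 without replicate 1 of adult cortex. In corpus callosum it was 0 without replicate 3 of the P7 group, 2 without replicate 1 of the adult group, and 1 without any of the other 4 arrays. Counts of rising genes over all genes also moved with these arrays, as given above beside the class II genes. The call of Erap1 was lost without replicate 2 or 3 of P7 corpus callosum and without any single adult array of that region.

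Costimulation gives T cells their second signal. The list for it held Cd80, Cd86, Cd40, Icosl and Cd274, the last of which is an inhibitory ligand. Of these 5, 2 were called in each region, all higher in the adult, beside the 4.05% and 6.56% of all genes that rose. Cd80 rose by 0.78 ± 0.21 in cortex (adjusted p = 0.0198) and by 0.86 ± 0.21 in corpus callosum (adjusted p = 0.00724). Cd86 rose by 0.76 ± 0.14 in cortex (adjusted p = 0.00127), whereas in corpus callosum its difference was 0.17 ± 0.14 (adjusted p = 0.488). Icosl, the ligand of ICOS, rose by 1.08 ± 0.17 in corpus callosum (adjusted p = 0.000191), against 0.35 ± 0.17 in cortex (adjusted p = 0.276). The difference between regions in the change from P7 to the adult was not called for Cd86 (-0.59 ± 0.20, adjusted p = 0.451) or Icosl (0.73 ± 0.25, adjusted p = 0.440). The cortex count was 1 without replicate 1 of P7 cortex or replicate 2 or 3 of adult cortex, because the call of Cd80 was lost.

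Of 8 genes of the interferon gamma pathway, 1 rose in cortex and 3 rose in corpus callosum, beside 4.05% and 6.56% of all genes. Irf8, a transcription factor that microglia need, rose by 0.62 ± 0.14 in cortex (adjusted p = 0.00502) and by 0.53 ± 0.14 in corpus callosum (adjusted p = 0.0102). In corpus callosum Ifngr1, a chain of the interferon gamma receptor, rose by 0.56 ± 0.13 (adjusted p = 0.00474), and Irf1, an interferon-induced factor, by 0.51 ± 0.16 (adjusted p = 0.0342). Neither Ifngr1 nor Irf1 was called in cortex, and the change of the regional difference from P7 to the adult was not called for either. The call of Irf1 was lost in 6 of 14 alternatives. The count was 4 in cortex without replicate 1 of adult cortex, where 1004 of all genes rose, against 899 with all arrays. It was 1 in corpus callosum without replicate 3 of P7 corpus callosum, where 1067 rose, against 1454.

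None of the 41 other pathway genes was called between regions at any age, or for a change of the regional difference with age. The smallest adjusted p in those 6 comparisons was 0.1, and the unadjusted p was under 0.05 for 11 genes at P3, 6 at P7 and 3 in the adult, and for 5, 6 and 10 in the interactions in the order given above. The shares of all genes were 12.8%, 6.88% and 8.51%, and 5.68%, 7.34% and 13.7%. Without the array that stood apart, the 11 genes at P3 were 7, and the 5 and 10 of the interactions with P3 were 3 and 9. Between P3 and P7 Canx, the chaperone calnexin, rose by 0.56 in cortex (adjusted p = 0.0416), and Marchf1 fell by 0.57 on the log2 scale in corpus callosum (adjusted p = 0.0316). These calls were lost in 7 of 13 and 5 of 13 alternatives, with adjusted p-values up to 0.173 and 0.175. Without the array that stood apart, 5 genes were called in corpus callosum, which were Calr, Canx, Marchf1, Pdia3 and Rfxap, against 1 with it. Over all 22180 genes, 506 were called without that array, against 164 with it.

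Markers of other cell types also differed between P7 and the adult. Of 9 markers of border-associated macrophages, brain macrophages that carry class II more readily, 4 fell in cortex and 5 in corpus callosum, and 0 rose. Of all genes, 6.15% fell and 4.05% rose in cortex, and 10.7% fell and 6.56% rose in corpus callosum. Their mean level ran from 6.24 to 6.58 in P7 cortex and from 5.19 to 5.23 in adult cortex, and from 6.44 to 6.65 and from 5.29 to 5.37 in corpus callosum. Mrc1, the mannose receptor, had a mean of 11.05 in P7 cortex and 6.82 in adult cortex. Of 7 dendritic cell markers, 0 were called in cortex and 3 rose in corpus callosum, which were Flt3, Itgae and Xcr1. The mean over these 7 ran from 6.08 to 6.17 in P7 corpus callosum and from 6.30 to 6.45 in the adult. Microglial markers rose for 4 of 7 in cortex and 5 of 7 in corpus callosum. Of 7 monocyte markers, 1 rose and 2 fell in cortex, and 1 rose and 1 fell in corpus callosum. The B cell marker Cd79b fell in both regions, the neuron markers Gap43 and Stmn2 in cortex, and Mbp of the oligodendrocyte lineage in corpus callosum. The astrocyte marker Slc1a3 rose in both regions, and Aqp4 and the endothelial Pecam1 in cortex. Of T and NK cell and neutrophil markers, 0 were called. Between the regions at P3, Folr2 and Ms4a7, 2 of 9 border-associated macrophage markers, and the monocyte marker Lyz2 were called higher in corpus callosum. The neuron markers Gap43 and Meg3 were called lower there, beside 0.505% of all genes called. At P7 Folr2 alone was called, higher in corpus callosum, beside 0.451%, and in the adult no marker was called. On the RMA scale no marker reads 0. The part of these cells in the levels of H2-DMa and its partners, or in the regional differences of the 10 genes, was not tested.

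In the order of the RefSeq annotation of GRCm38.p6, used for order only, 8 of the 10 genes lay on chromosome 17. Between H2-Oa and H2-Eb1 that annotation lists 14 genes, of which 13 had a probe set of their own symbol, and 6 of them were members. From the H2-Oa end, H2-Oa, Brd2, H2-DMa, H2-DMb2, H2-DMb1 and Psmb9 were all called higher in adult cortex. Past them lay Tap1, Psmb8 and Tap2, which were not called, then H2-Ob, which was, and then H2-Ab1, H2-Aa and H2-Eb1, which were not called. In corpus callosum H2-DMa, H2-DMb2, H2-DMb1 and H2-Ob were called. Brd2, a chromatin reader, differed by 0.37 ± 0.11 in cortex (adjusted p = 0.0470) and 0.29 ± 0.11 in corpus callosum (adjusted p = 0.1).

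**Figure D5:**
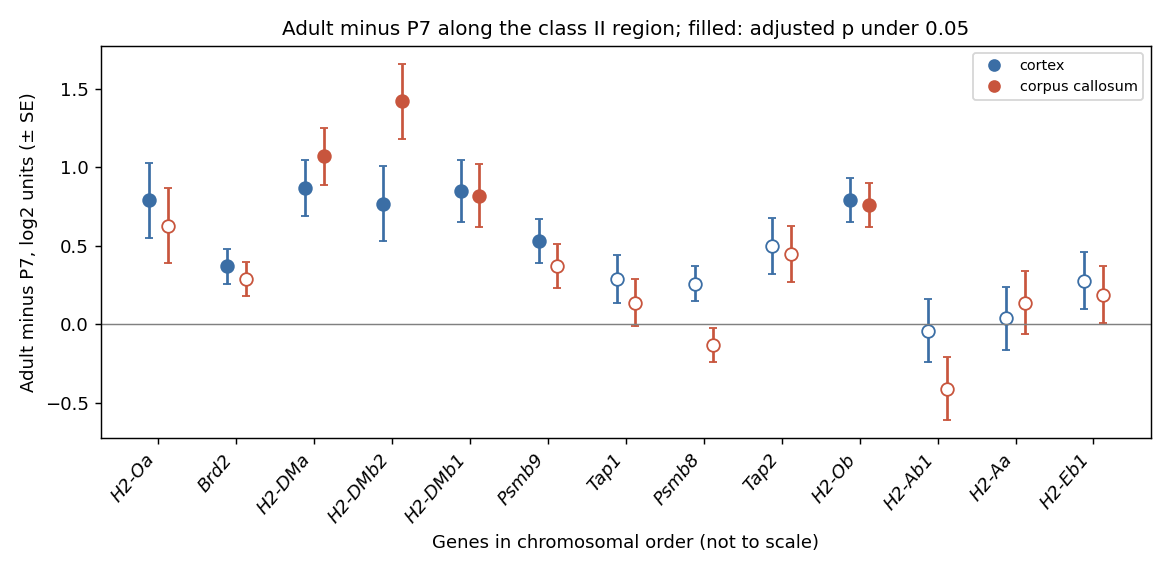
Difference between the adult and P7 in log2 units (vertical axis, with SE) for 13 genes in their order on chromosome 17 (horizontal axis, not to scale) in cortex (blue) and corpus callosum (red); filled points have an adjusted p under 0.05. H2-DMa, H2-DMb2, H2-DMb1 and H2-Ob are filled in both regions, whereas H2-Ab1, H2-Aa and H2-Eb1 are open in both.

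Promoters of class II genes carry an X box, bound by the RFX complex, and a Y box with the letters CCAAT in reverse, and Ciita acts through the proteins assembled there. Promoter sequences from RefSeq (GRCm38.p6), which span the start of a gene, were given for 7 of the 10 members, and H2-Ab1, Tap2 and Ciita were not among them. The 105 bases from 135 to 31 before the start are shown for both kinds of class II gene, those that rose in the adult and those that were not called. They are H2-DMb2 (chr17:34145114-34145218, + strand), H2-DMb1 (chr17:34153056-34153160, + strand), H2-Ob (chr17:34238770-34238874, + strand), H2-Oa (chr17:34092244-34092348, + strand), H2-Eb1 (chr17:34305732-34305836, + strand) and H2-Aa (chr17:34287854-34287958, - strand). Each is written 5′ to 3′ on the strand of its gene. Capitals mark the X-box letters CTANNAACNNATGATGC, with N for any base, and CCAAT on either strand (ATTGG in reverse).
H2-DMb2: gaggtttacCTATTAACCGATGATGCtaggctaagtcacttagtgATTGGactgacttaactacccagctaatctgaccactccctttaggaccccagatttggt
H2-DMb1: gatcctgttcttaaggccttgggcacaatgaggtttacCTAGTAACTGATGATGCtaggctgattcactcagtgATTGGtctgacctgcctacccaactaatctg
H2-Ob: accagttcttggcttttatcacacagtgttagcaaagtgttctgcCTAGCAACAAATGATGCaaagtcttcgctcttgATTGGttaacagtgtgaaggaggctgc
H2-Oa: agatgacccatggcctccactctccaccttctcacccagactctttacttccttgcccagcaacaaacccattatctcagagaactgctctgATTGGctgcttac
H2-Eb1: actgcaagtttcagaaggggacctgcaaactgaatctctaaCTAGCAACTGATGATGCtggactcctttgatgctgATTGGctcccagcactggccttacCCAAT
H2-Aa: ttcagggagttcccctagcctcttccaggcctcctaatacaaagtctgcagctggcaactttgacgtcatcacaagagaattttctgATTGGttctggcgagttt

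The X-box letters are the 17-base stretch with the most letters in common, 13, among the promoters of H2-DMb2, H2-DMb1, H2-Ob and H2-Eb1, so they match these 4 by construction. On both strands of all 32851 promoters they occurred in these 4 alone (0.0122%). There the reverse CCAAT followed 33 to 36 bases after the first X-box letter. CCAAT occurred on either strand in 37.4% of all promoters, and in 19.5% within the window shown. H2-Eb1, which was not called between the ages, carried both motifs as did H2-DMb2, H2-DMb1 and H2-Ob, which rose. H2-Oa and H2-Aa held the reverse CCAAT without the X-box letters. The letters were drawn from the 4 other promoters, so a miss of them does not show that an X box is absent. H2-DMa had 2 promoter entries, at different starts, and neither held the X-box letters, which says only that these letters are not in those windows.

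Genes whose levels resembled those of H2-Ab1 and H2-K1 were ranked by Pearson's r over the 18 arrays, among 9814 genes with a mean level of at least 6 and outside the lists used here. For H2-Ab1 the leading 5 were Igf1r, Naglu, Vps26c, Ric1 and Stk11, with r from 0.83 to 0.84 and Spearman's rho from 0.68 to 0.90. Without the array that stood apart, r ran from 0.75 to 0.80. For H2-K1 they were Rab21, Rnf6, Arap1, Creb3l2 and Bcl6, with r from 0.84 to 0.89 and rho from 0.75 to 0.90, and from 0.76 to 0.86 without that array. The arrays share groups and processing, and these are the highest values of a long list, so they are given as a description without a test.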

How the data were processed

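The authors' deposited values are log2 levels per probe set and array, made with RMA, per the submitters' processing notes. RMA removes background, equalizes the arrays' distributions and combines probes, so a change of total RNA cannot be seen and large differences are compressed. Neither the RMA version and settings nor the annotation build is given in the sources used here. Array medians lay between 5.58 and 5.74. Of 41345 probe sets, 23521 had 1 symbol in the platform annotation, 1814 had several and 16010 had none. A gene was its brightest probe set with 1 symbol (22180 genes).

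limma 3.58.1 (R 4.3.3) fitted 6 group means to all 18 arrays (eBayes without trend, 12 residual degrees of freedom), with 10 two-sided comparisons, each Benjamini-Hochberg adjusted over all genes and called under 0.05. SE and 95% intervals come from this fit. A permutation of 3 against 3 arrays cannot give p below 0.1. On data simulated for P7 corpus callosum against cortex, 11 of 50 genes changed by 0.5 and 41 of 50 changed by 1 were called. Members were named where called, where the difference was at least 0.5, or where arrays did not overlap, and from each other list up to 3 called genes per direction were named, with exceptions chosen after their values were seen (other values of members, class II genes past the third, and Brd2). Members and lists were chosen with earlier results of these data known. Cd74, H2-D1, H2-Q6, H2-Q7, H2-T22 and Gbp2 had no probe set of their own symbol and were not used here. Alternatives were renormalization, another variance prior, a filter on dim genes, fewer groups, averaged probe sets, array weights, a replicate block and leaving out arrays.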

Additional observations from a re-analysis of the deposited data

How the results depend on the processing

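Of 243 alternative values of 16 differences of the 10 genes, 232 kept their direction and side of the threshold, 10 were newly called, 0 were lost and 1 reversed, which was B2m in adult against P7 cortex at -0.007 after quantile normalization. In adult against P7 cortex 1 of the 10 genes was called, against 2 after quantile normalization, 2 with a trended and robust prior, 3 without dim genes (8 left), 5 with array weights, 2 with both adult arrays numbered 1 left out (an analysis added after seeing the data), and 1 to 2 when arrays were left out singly. Of all genes 2264 were called in that cortex comparison, against 2417 after quantile normalization, 2480 with that prior and 2585 of 11873 without dim genes. With array weights 3861 were called, 2223 with both adult arrays numbered 1 left out, and 1567 to 2117 when arrays were left out singly. In corpus callosum single arrays left 1 to 2 called, the second being H2-Ab1, called lower without replicate 3 of the P7 group. In P7 against P3 cortex array weights called 1, H2-DMa, against 0. With the replicate number as a block, 2 genes were called in adult against P7 cortex, the second being Tapbp (adjusted p = 0.0381), and no other count of the 10 genes changed. The labels do not say that a number marks a shared animal, and same-numbered cortex and corpus callosum arrays correlated by 0.02 to 0.30 in their deviations, over 0.1 in 4 of 9 pairs, with 7 of 9 cortex arrays correlating best with their own number. Between ages, where a number cannot mark the same animal, 12 same-numbered pairs correlated by -0.02 to 0.24, and the block in those comparisons joined such arrays. Because the labels do not state a pairing, the main fit used none, and whether same-numbered arrays of an age share a source is not known. Over all alternatives the count of all genes called moved from 112 to between 16 and 251 for the regions at P3, from 100 to between 40 and 236 at P7, from 1 to between 1 and 3 in the adult, from 196 to between 72 and 644 for P7 against P3 in cortex and from 164 to between 5 and 506 in corpus callosum. The change of the regional difference was called for 40 genes (0 to 190) in the adult against P3 and for 45 (10 to 105) in the adult against P7. In adult against P7 cortex 899 of all genes rose, against 1921 with array weights, 1041 after renormalization and 988 with another prior. Without dim genes 1023 of 11873 rose, with the block 959, and with the compared groups alone 815. In that comparison the rising interferon gamma pathway genes were 1, against 3 to 5 with another prior, renormalization, dim genes left out, array weights or the block, the rising class I genes were 3, against 6 with array weights, and the rising class II genes were 6, against 3 with the compared groups alone. In corpus callosum 5 interferon gamma pathway genes rose after renormalization, against 3, while 1368 of all genes rose, against 1454. The cause of these shifts was not tested.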

Other observations

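Over the 10 genes and the 41 others of the pathway, the array with the highest value was replicate 3 of P3 corpus callosum for 11 of 51 genes (21.6%, against 7.6% of all genes), replicate 2 of adult cortex for 11 of 51 (21.6%, against 4.9%) and replicate 3 of adult cortex for 10 of 51 (19.6%, against 6.2%). Cd274, the checkpoint ligand PD-L1, read 7.22 on replicate 3 of P3 corpus callosum, 5.37 and 5.68 on the other arrays of that group, and between 5.24 and 6.24 on the other 15 arrays of the series.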
